A study of Mus musculus with 6 samples.

Results

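Mincle (Clec4e), Dectin-1 (Clec7a) and 8 related myeloid C-type lectin receptor genes were described across oxLDL-exposed macrophages. The 10 genes were chosen by symbol (Clec4e, Clec4d, Clec4n, Clec7a, Clec4a1, Clec4a2, Clec4a3, Clec12a, Clec5a and Clec10a), and each matched 1 row among the 27240 genes of the deposited table. All 10 passed the filter on low counts that left 16239 genes for testing. The study sequenced poly(A) RNA of mouse primary peritoneal macrophages in 3 KO and 3 WT libraries, and both groups carry oxLDL as their labelled treatment. OxLDL is oxidised low-density lipoprotein, the modified particle that loads macrophages with lipid. The genotype label reads only KO or WT. The knocked-out gene is taken from the series title, which names the kinase DCLK1. Neither strain, age and sex nor the deletion strategy and the oxLDL dose are stated in the labels, which also do not say whether replicates came from separate animals. The p-values therefore measure the spread between these libraries, which may be technical. Macrophages without oxLDL were not analysed here.

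C-type lectin receptors of myeloid cells are membrane proteins whose extracellular lectin fold binds sugars, glycolipids, crystals or debris of dead cells. Mincle, MCL (Clec4d) and Dectin-2 (Clec4n) signal through the adaptor FcRγ, whereas Dectin-1 carries its own tyrosine motif. Both routes recruit the kinase Syk and lead through CARD9, BCL10 and MALT1 to NF-κB, the pathway to which IKKβ, also named in the series title, belongs. Clec12a and the DCIR gene Clec4a2 encode receptors with an inhibitory tyrosine motif that recruits phosphatases such as SHP-1. On macrophages Mincle, MCL, Dectin-1 and Dectin-2 are best known for sensing fungi and mycobacteria.

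Total counts lay between 68053008 and 79090732 per library, so 1 count was worth 0.0126 to 0.0147 CPM before scaling. CPM here is the usual read-depth unit, with library sizes scaled by TMM. The extraction text in the labels speaks of adipose material, against the label of peritoneal macrophages. The macrophage genes Cd68 and Adgre1 (F4/80) averaged 1993.2 and 1016 CPM in KO libraries and 1993.9 and 1057 CPM in WT libraries. Dclk1, the gene named by the title, was at 5.55, 5.89 and 5.15 CPM in KO libraries and at 7.27, 6.70 and 7.43 CPM in WT libraries. All KO libraries were lower, and none was near 0. The means were 5.53 ± 0.370 CPM in KO and 7.13 ± 0.383 CPM in WT libraries (SD, n = 3 each). The log2 fold change of Dclk1 was -0.37 (edgeR adjusted p = 0.332). Whole-gene counts cannot show which part was deleted, so they check the genotype labels only in part.

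The 10 genes covered a wide range of levels. They took 0.418% to 0.442% of all counts in KO libraries and 0.467% to 0.495% in WT libraries. Clec4d was highest on the FPKM scale, with 579, 571 and 540.3 FPKM in KO libraries and 599.5, 581 and 588 FPKM in WT libraries. Clec7a followed at 392, 379 and 376 FPKM in KO libraries and 438, 416 and 418 FPKM in WT libraries. Clec4e came next at 329.7, 305 and 321 FPKM in KO libraries and 402, 368 and 374 FPKM in WT libraries. Clec4n averaged 101 FPKM in KO and 92.3 FPKM in WT libraries, and Clec4a3 and Clec4a1 averaged 44.1 and 26.3 FPKM in KO and 41.1 and 24.8 FPKM in WT libraries. Below these lay Clec5a at 11.6 FPKM in KO and 13.2 FPKM in WT libraries, Clec12a at 7.14 FPKM in KO and 8.94 FPKM in WT libraries and Clec4a2 at 4.53 FPKM in KO and 4.49 FPKM in WT libraries. Clec10a was lowest, at 1.76 FPKM in KO and 1.60 FPKM in WT libraries. Within each genotype no gene's 3 libraries overlapped those of its neighbour in this order.

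**Figure D1:**
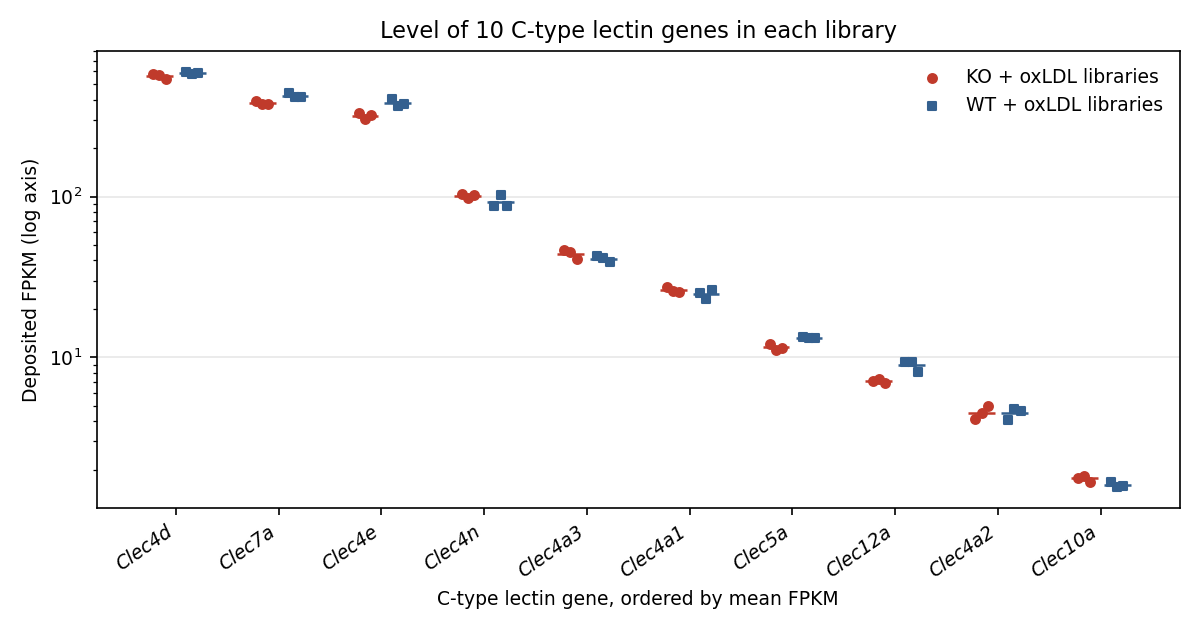
Deposited FPKM (log axis) of the 10 C-type lectin genes, with KO libraries as red circles on the left, WT libraries as blue squares on the right of each gene and horizontal lines for the means of 3 libraries. Levels run from Clec4d, at 540.3 to 599.5 FPKM over the 6 libraries, down to Clec10a, at 1.56 to 1.84 FPKM.

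The order of the top 3 genes depends on the length used. The lengths implied by the deposited FPKM were 1.11 to 1.12 times the summed exons of all annotated transcripts in GENCODE M21 for each of the 10 genes. That sum includes retained introns, and it is 1.97 times the longest coding transcript for Clec4e and 2.21 times for Clec12a, against 1.21 times for Clec4d and 1.16 times for Clec7a. Per kilobase of the longest coding transcript, a scale chosen after the data were seen, Clec4e reached 696 ± 27.0 CPM per kb in KO and 840.4 ± 37.6 CPM per kb in WT libraries (SD, n = 3 each). Clec4d reached 755 ± 27.4 CPM per kb in KO and 797 ± 9.29 CPM per kb in WT libraries. On that scale Clec4d was above Clec4e in KO libraries and Clec4e above Clec4d in WT libraries, with no overlap of the libraries in either genotype. Clec12a was above Clec5a on that scale, the reverse of their FPKM order, at 17.5 and 13.1 CPM per kb in KO and 22.1 and 15.2 CPM per kb in WT libraries. Differences between genotypes within a gene do not depend on the length.

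Of the 10 genes, 9 lie on chromosome 6 (coordinates as deposited, taken as GRCm38). The Clec4 cluster runs from Clec4a1 (122921848 to 122934619, plus strand) over Clec4a3 (122952515 to 122969875), Clec4a2 (123106428 to 123143999), Clec4n (123229843 to 123247021) and Clec4d (123262111 to 123275265) to Clec4e (123281789 to 123289870, minus strand). Clec4d and Clec4e are convergent, with 6523 bases between their ends. The Dectin-1 cluster holds Clec12a (129342691 to 129364416, plus strand) and Clec7a (129461591 to 129472779, minus strand). Clec5a stands alone at 40574894 to 40585821 on the minus strand, and Clec10a lies on chromosome 11 (70156197 to 70170834, plus strand). Levels of cluster neighbours differed widely. Between Clec4a3 and Clec4a2, Clec4a4 averaged 0.403 FPKM in KO and 0.360 FPKM in WT libraries, and Clec4b2, between Clec4a2 and Clec4n, was listed at 0 in all 6. In the Dectin-1 cluster, Clec9a averaged 0.226 FPKM in KO and 0.272 FPKM in WT libraries and Clec1a 0.0240 FPKM in KO and 0.0156 FPKM in WT libraries, next to Clec7a at 382 and 424 FPKM.

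**Figure D2:**
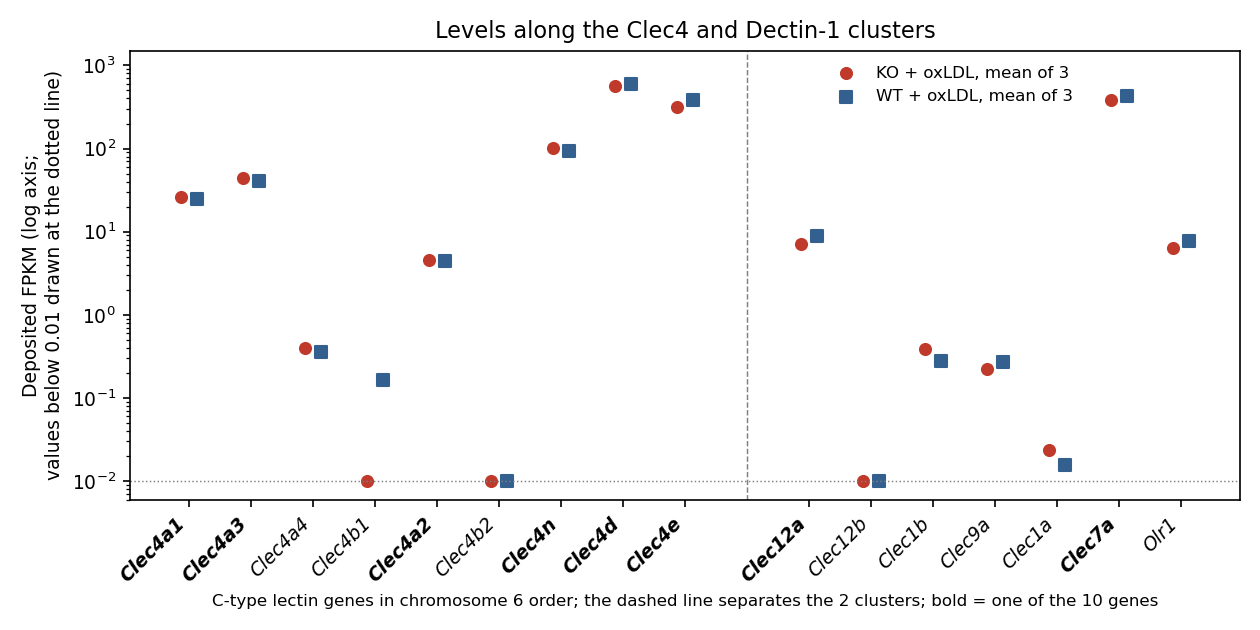
Mean deposited FPKM of 3 libraries (log axis) for C-type lectin genes in their order along chromosome 6, KO as red circles and WT as blue squares, with the Clec4 cluster left and the Dectin-1 cluster right of the dashed line. Clec4n, Clec4d and Clec4e at the end of the first cluster and Clec7a in the second stand above 90 FPKM in both genotypes, while Clec4a4, Clec4b1 and Clec4b2 stay under 1 FPKM.

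Counts of most of these genes could be assigned without a close copy. No exon of the 10 genes overlapped an exon of another gene in GENCODE M21. Clec4e, Clec4d, Clec7a, Clec5a, Clec4a1 and Clec4a3 shared no 50-base sequence with another annotated gene. Clec10a shared 8.49% of its 50-base sequences with its paralog Mgl2, and Clec4a2 shared 3.85% with Clec4a4. Over all other genes the shares were 9.02% for Clec10a and 6.83% for Clec4a2, beside 0.686% for Clec4n and 0.457% for Clec12a. The counts of Clec10a and Clec4a2 therefore carry some uncertainty.

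Promoters are shown for Clec4e, Clec7a, Clec12a and Clec5a, the 4 members with the lowest KO level relative to WT, so that their sequence can be read beside their values. Each line holds the 250 bases before the RefSeq start (GRCm38.p6), written 5′ to 3′ in the direction of the gene, with capitals for matches to the motifs named after them. The windows are chr6:123289872-123290121 for Clec4e, chr6:129472780-129473029 for Clec7a and chr6:40585806-40586055 for Clec5a on the minus strand, and chr6:129349994-129350243 for Clec12a on the plus strand. For Clec7a the first of several RefSeq starts was used, and for Clec12a and Clec5a the RefSeq start lies inside the span of the deposited gene.
Clec4e: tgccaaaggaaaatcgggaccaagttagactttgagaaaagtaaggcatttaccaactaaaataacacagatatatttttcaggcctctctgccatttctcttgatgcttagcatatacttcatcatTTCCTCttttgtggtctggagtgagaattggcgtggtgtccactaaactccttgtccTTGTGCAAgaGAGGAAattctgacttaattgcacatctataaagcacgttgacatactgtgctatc
Clec7a: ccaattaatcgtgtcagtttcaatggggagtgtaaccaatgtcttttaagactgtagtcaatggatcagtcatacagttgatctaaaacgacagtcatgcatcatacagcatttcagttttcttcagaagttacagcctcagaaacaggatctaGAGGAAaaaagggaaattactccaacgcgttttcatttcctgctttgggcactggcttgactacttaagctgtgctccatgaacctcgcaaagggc
Clec12a: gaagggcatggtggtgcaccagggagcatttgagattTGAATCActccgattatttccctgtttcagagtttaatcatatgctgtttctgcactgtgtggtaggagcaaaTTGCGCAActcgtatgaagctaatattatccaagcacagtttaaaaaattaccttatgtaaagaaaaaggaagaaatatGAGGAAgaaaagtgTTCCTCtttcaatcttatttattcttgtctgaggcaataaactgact
Clec5a: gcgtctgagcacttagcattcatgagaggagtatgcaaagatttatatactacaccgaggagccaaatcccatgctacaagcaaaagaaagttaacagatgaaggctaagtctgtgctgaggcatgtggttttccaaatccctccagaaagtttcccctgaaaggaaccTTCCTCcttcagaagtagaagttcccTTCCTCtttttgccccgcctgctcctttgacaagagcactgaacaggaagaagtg
The letters searched on both strands were GGGA and TTCC with any 2 bases between them (NF-κB), TGANTCA (AP-1), TTGCNNAA (C/EBP) and GAGGAA (PU.1 and other ETS factors). RefSeq promoters were found for 8 of the 10 genes, with Clec4n and Clec10a missing. The ETS letters were found in 6 of these 8, among them all 4 shown, and in 23.3% of 32851 promoter windows of that length. In Clec4e, C/EBP letters (9.56% of all windows) begin 66 bases before the start and overlap no other match. Clec12a holds C/EBP letters as well and was the 1 member with the AP-1 letters (6.75% of all windows). The NF-κB letters were in none of the 8 windows and in 1.21% of all windows. Letters this rare would seldom fall in 8 windows, so their absence says little, and other forms of the motif were not searched. A match describes the sequence and is not evidence of binding.

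No member passed the test between genotypes. EdgeR called 0 of the 10 at an adjusted p under 0.05, with 5 at an unadjusted p under 0.05, all lower in KO. Over all 16239 genes 0.0677% passed after adjustment (0.0431% lower and 0.0246% higher in KO), and 10.4% had an unadjusted p under 0.05. DESeq2 called 3 of the 10 on the same counts, Clec4e, Clec7a and Clec12a, all lower in KO, where it called 3.77% of all genes to which it gave an adjusted p. For 5 members, Clec4d, Clec7a, Clec4e, Clec5a and Clec12a, every KO library lay below every WT library, and 17.6% of all genes tested had groups that did not overlap (8.89% with KO lower and 8.68% with KO higher). The other 5 had fitted values above 0 and overlapping libraries. Over the 10 genes the coefficient of variation of CPM among replicates was 2.15% to 9.34% in KO and 0.868% to 10.4% in WT libraries. The median log2 fold change of the 10 was -0.04, beside -0.0019 for all genes tested. In bulk RNA, fewer cells of a type and less RNA per cell cannot be told apart.

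Clec4e, the receptor for the mycobacterial cord factor, had the smallest p of the 10 and rank 42 among all genes tested. It was at 1814, 1679.9 and 1767 CPM in KO libraries and at 2225, 2053 and 2071 CPM in WT libraries. The highest KO library lay below the lowest WT library by 11.3% of the WT mean. The KO mean was 82.9% of the WT mean, with a log2 fold change of -0.27 (95% interval -0.37 to -0.18, edgeR adjusted p = 0.0756). WT replicate 1 was the highest library, and without it the log2 fold change was -0.23 (edgeR adjusted p = 0.131). DESeq2 gave a log2 fold change of -0.27 with an adjusted p = 0.000104. Over all 11 alternatives the adjusted p of Clec4e ranged from 0.000104 to 0.262.

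Clec7a, the receptor for fungal beta-glucans, was at 1145, 1109 and 1099 CPM in KO libraries and at 1287, 1232 and 1231 CPM in WT libraries. The KO libraries lay close together and below all WT libraries, by 6.91% of the WT mean. The KO mean was 89.4% of the WT mean, with a log2 fold change of -0.16 (95% interval -0.23 to -0.09, edgeR adjusted p = 0.105). DESeq2 gave Clec7a an adjusted p = 0.0159, the lowest of 11 alternatives, which reached 0.342.

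Clec12a, an inhibitory receptor known to recognise uric acid crystals, had the fitted difference of largest size among the 10. It was at 43.5, 45.2 and 42.7 CPM in KO libraries and at 57.6, 57.9 and 50.3 CPM in WT libraries. WT replicate 3 was the lowest WT library and still lay above the KO libraries by 9.15% of the WT mean. The log2 fold change was -0.34 (95% interval -0.50 to -0.17, edgeR adjusted p = 0.139), and the KO mean was 79.3% of the WT mean. DESeq2 gave Clec12a an adjusted p = 0.00296, the lowest of its 11 alternatives, which reached 0.393.

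Clec5a, which signals through the adaptor DAP12 and is known as a receptor for dengue virus, was at 51.8, 47.5 and 48.4 CPM in KO libraries and at 57.4, 56.5 and 56.6 CPM in WT libraries. The WT libraries were nearly equal and all above the KO libraries. The log2 fold change was -0.21 (95% interval -0.33 to -0.08, edgeR adjusted p = 0.218). Clec4d, the partner of Mincle on the cell surface, was at 1025, 1013 and 957 CPM in KO libraries and at 1068, 1045 and 1049.6 CPM in WT libraries. Its groups were separated by 1.85% of the WT mean, and the log2 fold change was -0.08 (95% interval -0.15 to -0.0033, edgeR adjusted p = 0.450). For each of these 5 genes the two-sided exact permutation test gave p = 0.1, which is as low as 3 libraries against 3 can go.

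**Figure D3:**
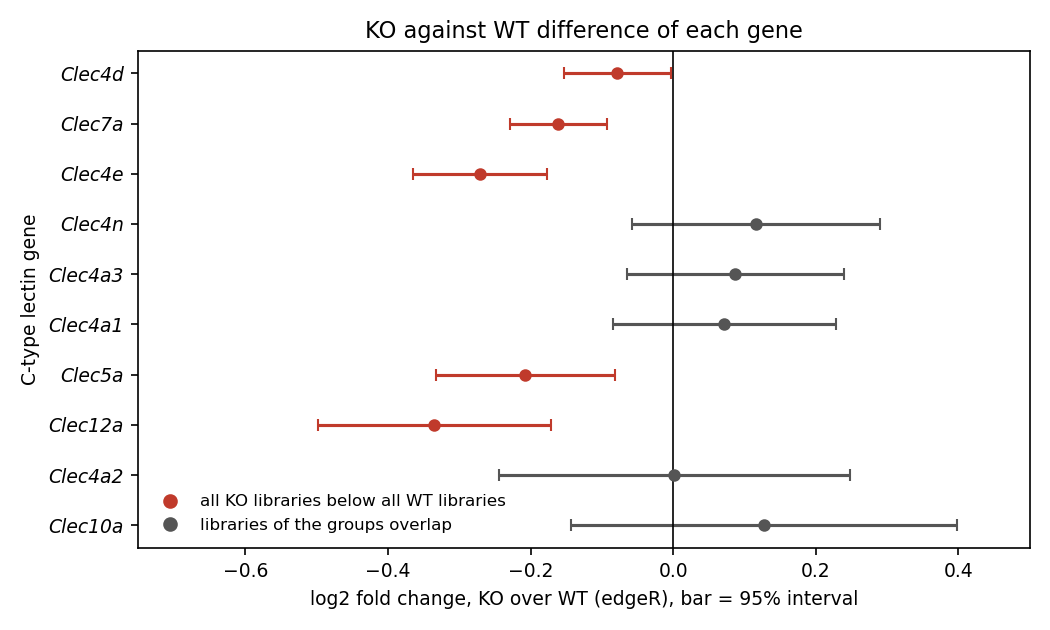
Log2 fold change of KO over WT (edgeR) for the 10 genes, ordered from the highest to the lowest FPKM, with 95% intervals as bars. The 5 genes in red, whose KO libraries all lay below their WT libraries, have intervals below 0, from -0.15 to -0.0033 for Clec4d to -0.50 to -0.17 for Clec12a.

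The other 5 members had fitted values at or above 0 and intervals that include 0. Clec4n, encoding the mannan receptor Dectin-2, was at 163, 154 and 160.3 CPM in KO libraries and at 137, 164 and 138 CPM in WT libraries. WT replicate 2 lay above all KO libraries, and the other 2 WT libraries lay below them. Its log2 fold change was 0.12 (95% interval -0.06 to 0.29, edgeR adjusted p = 0.654) and became 0.21 without WT replicate 2 (edgeR adjusted p = 0.201). Clec4a3 and Clec4a1, members of the DCIR subfamily, averaged 64.8 ± 4.09 and 45.3 ± 1.79 CPM in KO libraries and 61.1 ± 2.88 and 43.2 ± 2.81 CPM in WT libraries (SD, n = 3 each). Their edgeR adjusted p-values were 0.708 and 0.774, and their 95% intervals for the ratio of KO to WT were 0.956 to 1.18 and 0.943 to 1.17. Clec4a2, another DCIR gene, averaged 14.7 ± 1.38 CPM in KO and 14.7 ± 1.26 CPM in WT libraries, with an interval of 0.844 to 1.19 for that ratio (edgeR adjusted p = 0.998). Clec10a, which encodes a galactose-binding receptor, had 429, 436 and 397 counts in KO libraries and 370, 380 and 403 counts in WT libraries. Its groups overlapped in CPM, but in FPKM each KO library (1.68 to 1.84) lay above each WT library (1.56 to 1.67). The log2 fold change of Clec10a was 0.13 (95% interval -0.14 to 0.40, edgeR adjusted p = 0.770).

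**Figure D4:**
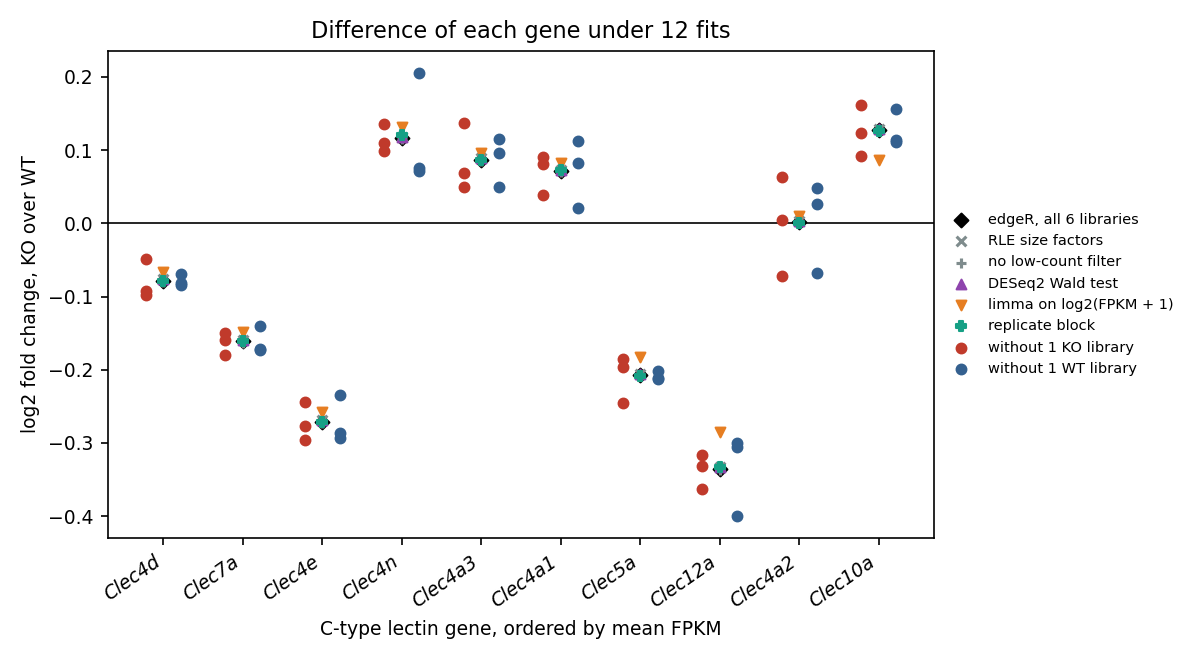
Log2 fold change of KO over WT for each gene in 12 fits, with all 6 libraries in edgeR (black diamonds, partly hidden by fits of nearly equal value), under other scalings and tools, and without 1 KO (red, left) or 1 WT (blue, right) library. Clec4e lies between -0.30 and -0.23 and Clec12a between -0.40 and -0.29 in the alternatives, while Clec4a2 lies between -0.07 and 0.06 and crosses 0.

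Ratios within a library need no scaling between libraries. The count of Clec4e over that of Clec4d was 1.77, 1.66 and 1.85 in KO libraries and 2.08, 1.96 and 1.97 in WT libraries. The ratio was thus lower in each KO library, at 1.76 ± 0.0943 in KO and 2.01 ± 0.0661 in WT libraries (SD, n = 3 each). Clec4e over Clec7a was 1.57 ± 0.0489 in KO and 1.69 ± 0.0327 in WT libraries, and Clec4e over Clec4n was 10.9 to 11.2 in KO and 12.5 to 16.2 in WT libraries, both without overlap. Clec4e supplied on average 41.2% of the counts of the 10 genes in KO and 44.0% in WT libraries, Clec7a 26.3% in KO and 26.0% in WT libraries and Clec4d 23.5% in KO and 21.95% in WT libraries. These 3 receptors thus made up most of the counts of the family in both genotypes. Such ratios restate the counts behind the values above and are no separate test, and their share over other gene pairs was not computed. They show unequal change and not which gene moved.

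Signalling partners of the receptors were listed as 30 genes, all tested. EdgeR called 0 (0.0677% of all genes tested), and 7 had an unadjusted p under 0.05 (10.4% of all genes), all lower in KO. DESeq2 called 4 (3.77% of all genes to which it gave an adjusted p), all lower in KO, among them Src, Ptpn6 and Fcer1g. The groups did not overlap for 13 (8 lower and 5 higher in KO), beside 17.6% of all genes, and the median log2 fold change was 0.01. The adaptor genes Tyrobp, which encodes DAP12, and Fcer1g, which encodes FcRγ, averaged 796 and 472 FPKM in KO and 845 and 519.8 FPKM in WT libraries. Fcer1g was at 458 ± 10.4 CPM in KO and 508 ± 14.1 CPM in WT libraries, or 90.1% of the WT level (log2 fold change -0.15, edgeR adjusted p = 0.173). Tyrobp was at 589 ± 32.8 CPM in KO and 630.3 ± 27.2 CPM in WT libraries (log2 fold change -0.10, edgeR adjusted p = 0.555). The adaptor gene Lat2 was at 322 ± 18.7 CPM in KO and 297 ± 16.9 CPM in WT libraries (edgeR adjusted p = 0.556).

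The kinase gene Src had the smallest p of the list. It was at 20.0, 19.4 and 17.6 CPM in KO libraries and at 34.2, 29.5 and 30.7 CPM in WT libraries, with KO at 60.4% of the WT level. Its log2 fold change was -0.73 (95% interval -0.93 to -0.53), with an edgeR adjusted p = 0.0595 and a DESeq2 adjusted p = 7.47e-10. Ptpn6, which encodes the phosphatase SHP-1, was at 199, 206 and 221 CPM in KO libraries and at 313, 276 and 275 CPM in WT libraries. No KO library of Ptpn6 reached the WT range, and the log2 fold change was -0.46 (edgeR adjusted p = 0.0756, DESeq2 adjusted p = 2.67e-08). The adjusted p over the 11 alternatives ranged from 7.47e-10 to 0.183 for Src and from 2.67e-08 to 0.230 for Ptpn6.

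Syk, Card9 and Bcl10, which form the core of the pathway, had fitted differences near 0. Syk was at 844 ± 4.67 CPM in KO and 859 ± 5.03 CPM in WT libraries, a log2 fold change of -0.03 (95% interval -0.08 to 0.03). Card9 was at 28.5 ± 0.622 CPM in KO and 27.95 ± 0.512 CPM in WT libraries (95% interval of log2 fold change -0.11 to 0.16), and Bcl10 at 60.9 ± 1.33 CPM in KO and 60.8 ± 1.254 CPM in WT libraries (-0.11 to 0.11). Malt1 was at 122, 114 and 119 CPM in KO libraries and at 290.5, 159 and 142 CPM in WT libraries, so WT replicate 1 stood far above the others. Its log2 fold change was -0.74 with all libraries (edgeR adjusted p = 0.354) and -0.35 without WT replicate 1 (edgeR adjusted p = 0.189). Map3k7, which encodes the kinase TAK1, was at 79.6, 78.7 and 81.5 CPM in KO libraries and at 77.0, 76.1 and 33.3 CPM in WT libraries. WT replicate 3 alone was low for Map3k7, and the log2 fold change was 0.36 with it and 0.06 without it. Every KO library lay below every WT library for Syk and Malt1 and above every WT library for Map3k7. Groups did not overlap for 17.6% of all genes tested. Syk, Card9, Bcl10, Malt1 and Map3k7 were named after their values were seen. Ikbkb, which encodes IKKβ, was at 76.1 ± 2.06 CPM in KO and 79.2 ± 4.60 CPM in WT libraries (edgeR adjusted p = 0.791).

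**Figure D5:**
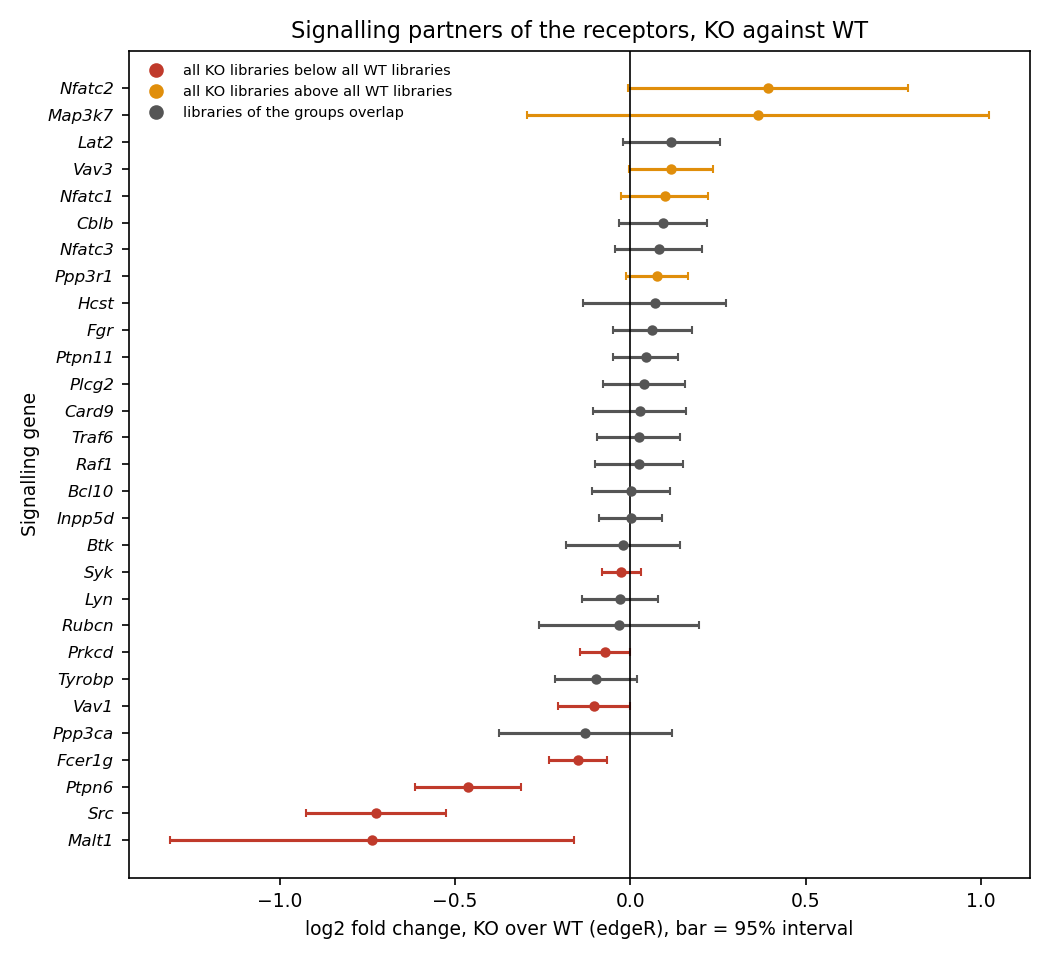
Log2 fold change of KO over WT (edgeR) with 95% intervals for genes of the signalling list, sorted by value, with genes whose libraries do not overlap in red (KO lower) or orange (KO higher). Malt1, at -0.74, lies furthest to the left, with an interval from -1.31 to -0.16. Src, at -0.73, and Ptpn6, at -0.46, have narrower intervals than Malt1, both below 0.

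Other receptors of the superfamily were listed as 39 genes, of which 32 were matched in the table and 22 tested. EdgeR called 0 (0.0677% of all genes tested), and 5 had an unadjusted p under 0.05 (3 lower and 2 higher in KO), beside 10.4% of all genes. DESeq2 called 2, Cd93 and Thbd, both higher in KO, beside 3.77% of all genes to which it gave an adjusted p. Cd93, a receptor linked to the clearance of apoptotic cells, was at 854, 885 and 884 CPM in KO libraries and at 756, 797 and 790.3 CPM in WT libraries. Every KO library of Cd93 lay above every WT library, with a log2 fold change of 0.16 (95% interval 0.09 to 0.24, edgeR adjusted p = 0.124). Thbd, which encodes thrombomodulin, averaged 27.97 ± 1.80 CPM in KO and 21.5 ± 2.49 CPM in WT libraries (log2 fold change 0.38, edgeR adjusted p = 0.223). Cd302 averaged 99.7 ± 4.71 CPM in KO and 108 ± 5.60 CPM in WT libraries (edgeR adjusted p = 0.556), and Ly75, which encodes the endocytic receptor DEC-205, 369.6 ± 4.48 CPM in KO and 403 ± 26.8 CPM in WT libraries (edgeR adjusted p = 0.446). Olr1, the gene of the oxLDL receptor LOX-1 and the next listed lectin gene beyond Clec7a, was at 24.7, 26.1 and 24.6 CPM in KO libraries and at 29.5, 27.9 and 34.1 CPM in WT libraries. All KO libraries were lower for Olr1, with a log2 fold change of -0.28 (edgeR adjusted p = 0.315). Olr1 was named after its values were seen.

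The genes whose log2 CPM profile over the 6 libraries was most like that of Clec4e, among 9584 genes with at least 5 CPM, were the chemokine gene Ccl4, Ms4a6c and the mitochondrial carrier gene Ucp2. Their root mean square distances from Clec4e were 0.0254, 0.0271 and 0.0284 on the log2 scale, beside a median of 0.177. Ccl4 was at 8.97, 8.45 and 8.88 CPM in KO libraries and at 11.5, 10.1 and 10.6 CPM in WT libraries. Nearest to Clec7a were Agtrap, Mapkapk2, which encodes the kinase MK2, and Fcer1g, at distances of 0.0110, 0.0201 and 0.0216, beside a median of 0.131. These distances describe 6 libraries and were not tested.

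Markers of other cells that a peritoneal wash can hold were summed over each list in CPM, and the 2 genes with the highest FPKM in each list are named. Dendritic cell markers (10 genes) summed to 27.6 to 29.3 CPM in KO and 34.6 to 41.2 CPM in WT libraries. Fibroblast and mesothelial markers (10 genes) summed to 71.8 to 85.4 CPM in KO and 95.1 to 99.8 CPM in WT libraries. T and NK cell markers (10 genes) summed to 13.2 to 14.0 CPM in KO and 15.99 to 19.9 CPM in WT libraries, and mast cell markers (8 genes) to 3.53 to 4.62 CPM in KO and 5.37 to 6.56 CPM in WT libraries. These 4 sums were lower in every KO library, like the 5 members without overlap, and their part in those values was not tested. Members of a list did not all go one way. Of those tested, 7 of 8 dendritic cell, 7 of 10 fibroblast and mesothelial, 6 of 8 T and NK cell and 6 of 7 mast cell markers had fitted values below 0. The mesothelial marker Wt1 averaged 1.37 CPM in KO and 0.900 CPM in WT libraries and the cytotoxic granule gene Gzma 0.344 CPM in KO and 0.0441 CPM in WT libraries, each higher in every KO library. The mast cell receptor gene Kit averaged 1.71 CPM in KO and 1.96 CPM in WT libraries, and the T cell genes Cd4 and Cd8a 3.39 and 3.37 CPM in KO and 4.97 and 3.06 CPM in WT libraries. Ccr7 and Fscn1 averaged 9.34 and 11.8 CPM in KO and 11.7 and 16.9 CPM in WT libraries, Col1a2 and Col1a1 28.8 and 14.4 CPM in KO and 32.2 and 17.5 CPM in WT libraries. Trbc2 and Trac averaged 1.33 and 1.84 CPM in KO and 2.58 and 2.05 CPM in WT libraries, and Cma1 and Cpa3 0.619 and 0.658 CPM in KO and 1.28 and 1.16 CPM in WT libraries. In all 4 lists 0 markers passed edgeR's adjusted test. The dendritic cell genes Xcr1, Cd209a and Siglech, which define particular subsets, averaged 0.0725, 0 and 0 CPM in KO and 0.199, 0.0170 and 0 CPM in WT libraries.

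The remaining lists overlapped between genotypes or were only just apart. Macrophage markers (12 genes) summed to 5265 to 5385 CPM in KO and 5143 to 5396 CPM in WT libraries. Monocyte markers, with Chil3 and Fn1 at 209 and 332 CPM in KO and 236 and 315 CPM in WT libraries, summed to 543 to 582 CPM in KO and 514 to 608 CPM in WT libraries. Large peritoneal macrophage markers, with F10 and Prg4 at 302 and 11.9 CPM in KO and 319 and 9.83 CPM in WT libraries, summed to 308.5 to 333.2 CPM in KO and 333.7 to 343 CPM in WT libraries. The KO libraries thus lay just below the WT libraries in that sum, most of which came from F10. By itself F10 overlapped, at 287 to 315 CPM in KO and 313 to 323 CPM in WT libraries. Of the 8 markers tested, 5 had fitted values above 0 and 3 below, and 0 had groups that did not overlap. Gata6, Timd4, Icam2 and Vsig4 averaged 2.01, 0.826, 1.10 and 1.83 CPM in KO libraries. In WT libraries they averaged 2.67, 1.22, 1.03 and 1.74 CPM. Neutrophil markers, with S100a8 and Mmp8 at 21.6 and 36.2 CPM in KO and 24.6 and 31.0 CPM in WT libraries and Csf3r highest in CPM at 45.4 CPM in KO and 48.7 CPM in WT libraries, summed to 103.6 to 105 CPM in KO and 100.5 to 108 CPM in WT libraries, with Ly6g and Retnlg at 0 in all 6 libraries. B cell markers, with Ighm and Cd79a at 3.70 and 0.637 CPM in KO and 3.75 and 0.357 CPM in WT libraries, summed to 5.11 to 6.45 CPM in KO and 4.37 to 5.06 CPM in WT libraries. In the B cell sum the KO libraries lay just above the WT libraries. Of the 6 B cell markers tested, 5 had fitted values above 0, and 7 of the 8 listed averaged under 1 CPM. A count of 0 allows up to 3 counts, or 0.0379 to 0.0441 CPM per library, a limit that covers counting error only.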

How the data were processed

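Per the labels' protocols, poly(A) RNA was sequenced paired-end. The submitters' processing notes name HISAT2 2.0. For the counting tool, its annotation, its use of strand and the genome build, no statement was found in the sources used here. Each gene has a whole-number count per library, per the file headers. The authors also deposited an FPKM value for each count, scaled for length and depth. GENCODE M21 held 27169 of the IDs, 23625 of them at identical coordinates and strand. Another 12 columns carry names of no sample here and were left aside. No library duplicated another of its group (chi-square over degrees of freedom 36.7 to 42.8).

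Genes were kept by filterByExpr and tested two-sided with edgeR 4.0.16 quasi-likelihood fits (R 4.3.3, TMM scaling, genotype alone in the model), with Benjamini-Hochberg adjustment over all genes tested and a threshold of 0.05. The fits were first tested on simulated data. There edgeR recovered 4% of 50 changes of 1.25-fold and 20% of 50 changes of 1.5-fold, so small changes were mostly missed. Intervals are at 95%. The alternatives were RLE size factors, no filter, DESeq2 1.42.0, limma 3.58.1 on log2(FPKM + 1), the replicate number as a block and each library left out.

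The members and lists were chosen with earlier results of these data known. By rule, all members were named, and of the signalling and other receptor lists, where none passed, the 3 most abundant and the 2 of smallest p. Abundance here means mean FPKM. Of each marker list the 2 most abundant were named. Other genes were named after their values were seen. The values of 1 gene of the signalling list enter the counts but are not reported here.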

Additional observations from a re-analysis of the deposited data

How the results depend on the processing

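EdgeR called 11 genes in all. The count was 7 with no filter, 457 with DESeq2 and 3 with the replicate block, and 7 to 35 without 1 library. Of the 10 C-type lectin genes DESeq2 called 3, of the 30 signalling genes 4 and of the other receptors 2. The other alternatives, limma, RLE, no filter, the replicate block and each fit without 1 library, called 0 in these lists. Same-numbered libraries had correlations of 0.0397, 0.0497 and 0.0146 between their deviations, and each library's highest was with its own number. Values this small do not settle whether the replicate numbers pair the libraries. With the replicate block the Clec4e log2 fold change was -0.27 (edgeR adjusted p = 0.105). Of the 10 genes, 9 kept the direction of their difference in all 11 alternatives. Clec4a2 was the exception, at -0.000145 with no filter and between -0.0717 and 0.0629 without 1 library. Bcl10 was at -0.000315 with no filter and between -0.0150 and 0.0169 without 1 library. Dclk1 had no value from limma, which needed 1 FPKM in 3 libraries. The cause of these shifts was not tested. Clec10a rests on the fewest counts of the 10 genes, 370 to 436 per library.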
